A study of Mus musculus with 9 samples.

Results

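The genes described are 8 genes that mark fibroblasts: Pdgfra, Pdgfrb, Tcf21, Ddr2, Thy1, Meox1, Fap and Gsn. They were taken by name from a table of fragment counts for 55401 genes, and all 8 were among the 16762 genes with enough counts to be tested. The libraries are poly(A) RNA-seq from primary neonatal mouse ventricular myocytes (NMVMs), the muscle cells of the ventricle, put into culture from wild-type C57BL/6J pups of 1 day of age. There were 3 groups of 3 libraries. Control cells stayed at normal oxygen in complete DMEM with 10% FBS. Hypoxia cells were washed, given DMEM without glucose or serum and kept in a sealed chamber with an oxygen absorber for 6 h. Hypoxia + rSRGN cells had the same medium and chamber, with recombinant SRGN (serglycin, a proteoglycan) added for those hours. Against control, the effects of low oxygen and of the medium cannot be told apart. The labels give no difference between the chamber groups besides the protein. The dose of rSRGN is not given there, nor whether the libraries of a group came from separate cultures or litters, so that the p-values measure the spread between these libraries, which may be technical.

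Cultures of neonatal ventricular cells are known to carry fibroblasts beside the myocytes. Fibroblasts build and remodel the collagen matrix of the heart, and many of them come from the epicardium, the outer layer of the heart, during development. Pdgfra and Pdgfrb encode receptors for platelet-derived growth factors (PDGF), with Pdgfra used to mark resident cardiac fibroblasts and Pdgfrb also high in pericytes and smooth muscle. Ddr2 encodes a receptor tyrosine kinase that binds fibrillar collagen. Thy1 encodes a glycolipid-anchored surface protein of many mesenchymal cells, neurons and T cells. Fap encodes a surface protease that is known from activated fibroblasts. Tcf21 and Meox1 encode transcription factors, a bHLH factor needed for the cardiac fibroblast lineage and a homeobox factor known from fibroblast activation. Gsn encodes gelsolin, which severs and caps actin filaments.

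The start regions of members are shown because the members did not move together, and because TCF21 and its bHLH partners bind E-boxes (CANNTG), while the hypoxia-inducible factors (HIF) bind a short core. The letters searched for the HIF core were ACGTG, here form 1, and in place of its first base a G, which makes GCGTG, here form 2. RefSeq windows (GRCm38.p6), which run from 250 bases before to 50 bases after a start site, were at hand for 4 of the 8 members, in 6 entries. Printed are Tcf21, the only member called lower with rSRGN, Ddr2 and Pdgfra, whose hypoxia + rSRGN libraries all lay above the hypoxia libraries, and Gsn, with no difference between those groups that could be detected. Capitals mark E-boxes and HIF cores of both forms, searched on both strands.
Tcf21, chr10:22820094-22820393, minus strand: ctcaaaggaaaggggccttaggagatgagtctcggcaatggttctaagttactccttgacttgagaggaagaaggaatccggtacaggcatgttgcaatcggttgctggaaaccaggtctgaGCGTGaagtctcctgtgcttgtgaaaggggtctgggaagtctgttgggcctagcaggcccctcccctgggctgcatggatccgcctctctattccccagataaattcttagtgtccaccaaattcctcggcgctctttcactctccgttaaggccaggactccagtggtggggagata
Ddr2, chr1:170088895-170089194, minus strand: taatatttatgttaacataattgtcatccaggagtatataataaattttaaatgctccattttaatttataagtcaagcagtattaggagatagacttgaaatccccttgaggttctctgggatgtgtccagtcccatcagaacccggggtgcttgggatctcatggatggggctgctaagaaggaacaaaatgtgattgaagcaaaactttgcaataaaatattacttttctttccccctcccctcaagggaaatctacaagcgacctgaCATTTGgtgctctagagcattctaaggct
Pdgfra, chr5:75152001-75152300, plus strand: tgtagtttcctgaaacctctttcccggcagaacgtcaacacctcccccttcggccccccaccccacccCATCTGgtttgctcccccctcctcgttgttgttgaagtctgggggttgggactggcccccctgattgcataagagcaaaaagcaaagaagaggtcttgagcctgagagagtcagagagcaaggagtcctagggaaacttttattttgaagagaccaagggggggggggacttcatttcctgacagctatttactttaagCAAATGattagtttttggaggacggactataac
Gsn, chr2:35256109-35256408, plus strand: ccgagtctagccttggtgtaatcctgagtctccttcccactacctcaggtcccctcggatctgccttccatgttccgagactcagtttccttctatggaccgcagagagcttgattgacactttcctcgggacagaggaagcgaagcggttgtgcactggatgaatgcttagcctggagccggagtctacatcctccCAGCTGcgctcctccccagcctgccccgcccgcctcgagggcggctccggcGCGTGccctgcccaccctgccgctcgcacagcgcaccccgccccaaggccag
The Tcf21 window held 0 E-boxes and 1 HIF core of form 2, at position -128 from the start site. The Ddr2 window held 1 E-box at position 21 and no HIF core, and its GC content was 39%, beside a median of 52.7% over all windows. It lies within the span that the count table gives Ddr2, and is not the outermost start there. The Pdgfra window held 2 E-boxes, at positions -182 and 17, and no HIF core. The Gsn window, the outermost of its 3 entries, held 1 E-box at position -53 and 1 HIF core of form 2 at position -2. Its other entries, which are not printed, held 3 and 2 E-boxes and no HIF core of either form. Of all 32851 windows, 72.3% held an E-box, 19.6% a HIF core of form 1 and 32.4% a HIF core of form 2. These matches describe letters only and say nothing on the binding of a factor.

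The libraries held 21669017 to 22781557 assigned fragments in control, 16583985 to 18148474 in hypoxia and 16640239 to 20826701 in hypoxia + rSRGN. The 8 genes took 0.122% to 0.128% of them in control, 0.206% to 0.237% in hypoxia and 0.229% to 0.231% in hypoxia + rSRGN. All 20 cardiomyocyte markers searched were tested, so the cells carried the transcripts of their label. Their summed level was 57592 to 70055 CPM (counts per 1000000 assigned fragments, with library sizes scaled by TMM) in control, 4955 to 7775 in hypoxia and 10091 to 10747 in hypoxia + rSRGN, and all 20 fell in hypoxia against control. Mitochondrially encoded mRNA took 8.07% to 9.24% of fragments in control, 2.74% to 3.45% in hypoxia and 2.54% to 2.95% in hypoxia + rSRGN. Mitochondrially encoded rRNA went the other way, with 0.195% to 0.239% of fragments in control, 2.31% to 2.61% in hypoxia and 2.27% to 2.67% in hypoxia + rSRGN. These shifts moved with the groups in every comparison with control below, and their part in the members' values was not tested. In bulk RNA, fewer cells of a type and less RNA per cell cannot be told apart.

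All 8 genes were detected in all 9 libraries, over a wide range of levels. As FPKM, the fragments per kilobase of exon scaled to library size, Gsn was the most abundant, with a control level of 197 ± 7.41 (SD, n = 3), and lay above 98.9% of tested genes. Thy1 followed at 56.7 ± 2.83, Pdgfrb at 32.1 ± 1.99 and Tcf21 at 29.0 ± 1.08. Control Pdgfrb and Tcf21 levels overlapped, while all other neighbours in the order of levels were separate. Ddr2 reached 18.02 ± 0.405, Pdgfra 7.55 ± 0.250 and Meox1 1.86 ± 0.280 FPKM in control. Fap was close to the limit of detection, at 0.115 ± 0.0582 FPKM, above 5.85% of tested genes.

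**Figure D1:**
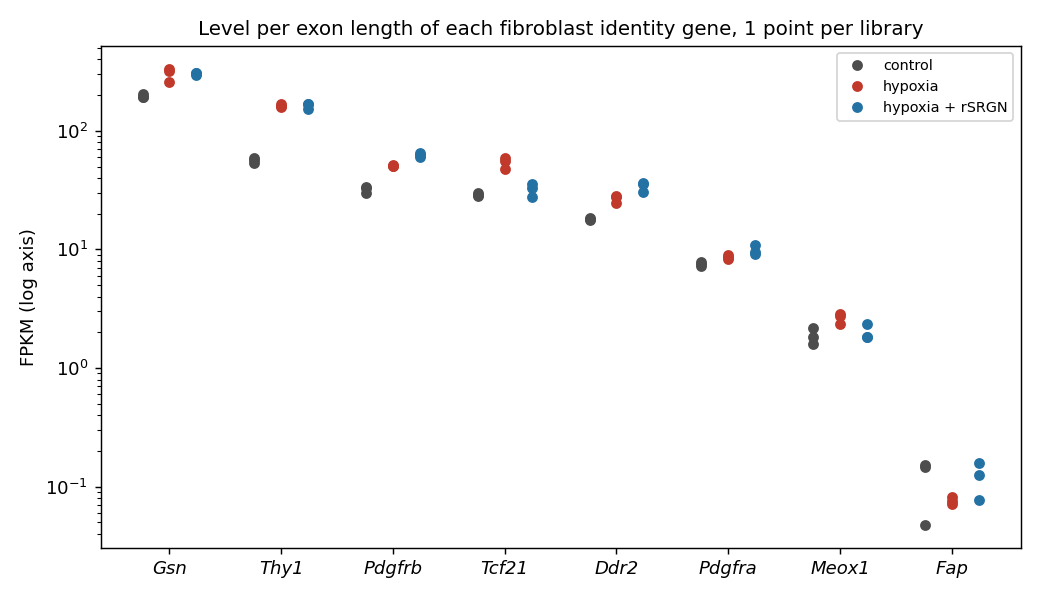
FPKM of each gene on a log axis, 1 point per library, in grey for control, red for hypoxia and blue for hypoxia + rSRGN, with genes ordered by their control mean. Gsn lies highest and Fap lowest in all groups, and Tcf21 changes places with Pdgfrb in hypoxia and with Ddr2 in hypoxia + rSRGN.

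The order of levels changed little between groups. In hypoxia, Tcf21 had a mean of 54.5 ± 5.797 FPKM and Pdgfrb 51.1 ± 0.640, and their libraries again overlapped. In hypoxia + rSRGN, Pdgfrb stood at 62.3 ± 2.80 FPKM, Ddr2 at 34.3 ± 3.07 and Tcf21 at 32.1 ± 4.003, and the Ddr2 and Tcf21 libraries overlapped. Gsn, Thy1, Pdgfra, Meox1 and Fap kept their ranks of 1, 2, 6, 7 and 8 in all groups. The spread between replicates, as edgeR's biological coefficient of variation, was 6.38% to 7.92% for 6 of the genes, 12.96% for Meox1 and 30.1% for Fap, beside a median of 9.46% over all tested genes.

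The comparison of hypoxia with control shows how the fibroblast genes stood after 6 h at low oxygen in medium without glucose and serum. Thy1, Tcf21, Pdgfrb and Gsn rose, and none of the 8 fell. Calls needed a fold change of at least 1.5 and, in the quasi-likelihood test of edgeR, a p under 0.05 after Benjamini-Hochberg adjustment over all tested genes. By this rule 4 of 8 genes were higher, where 26.4% of all tested genes were called higher and 25.1% lower. The median log2 fold change of the 8 genes was 0.60, beside 0.05 over all tested genes. In 7 of 8 genes every hypoxia library lay above every control library, as in 37.7% of all tested genes, while 35.3% of tested genes were separate in the other direction.

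The comparison of hypoxia + rSRGN with hypoxia shows how the same genes stood with the added protein. Tcf21 fell and the other 7 genes were not called, so that 0 of 8 were higher and 1 was lower. Over all tested genes 2.27% were called higher and 0.859% lower. The median log2 fold change was 0.10 for the 8 genes and -0.03 for all tested genes. The hypoxia + rSRGN libraries lay wholly above the hypoxia libraries for Pdgfra, Pdgfrb and Ddr2 and wholly below them for Tcf21 and Meox1, while 16.5% of tested genes were separate upwards and 15.5% downwards.

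Against control, hypoxia + rSRGN had 4 of 8 genes higher, which were Thy1, Pdgfrb, Ddr2 and Gsn, and 0 lower. Of all tested genes 24.1% were called higher and 24.7% lower. The median log2 fold change of the 8 genes was 0.51, beside 0.01 over all tested genes. For 5 of 8 genes the libraries were separate upwards and for the other 3 they overlapped, where 36.6% of tested genes were separate upwards and 36.6% downwards. Each pair of these 3 comparisons shares the libraries of a group, so that their fold changes are not independent of each other.

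**Figure D2:**
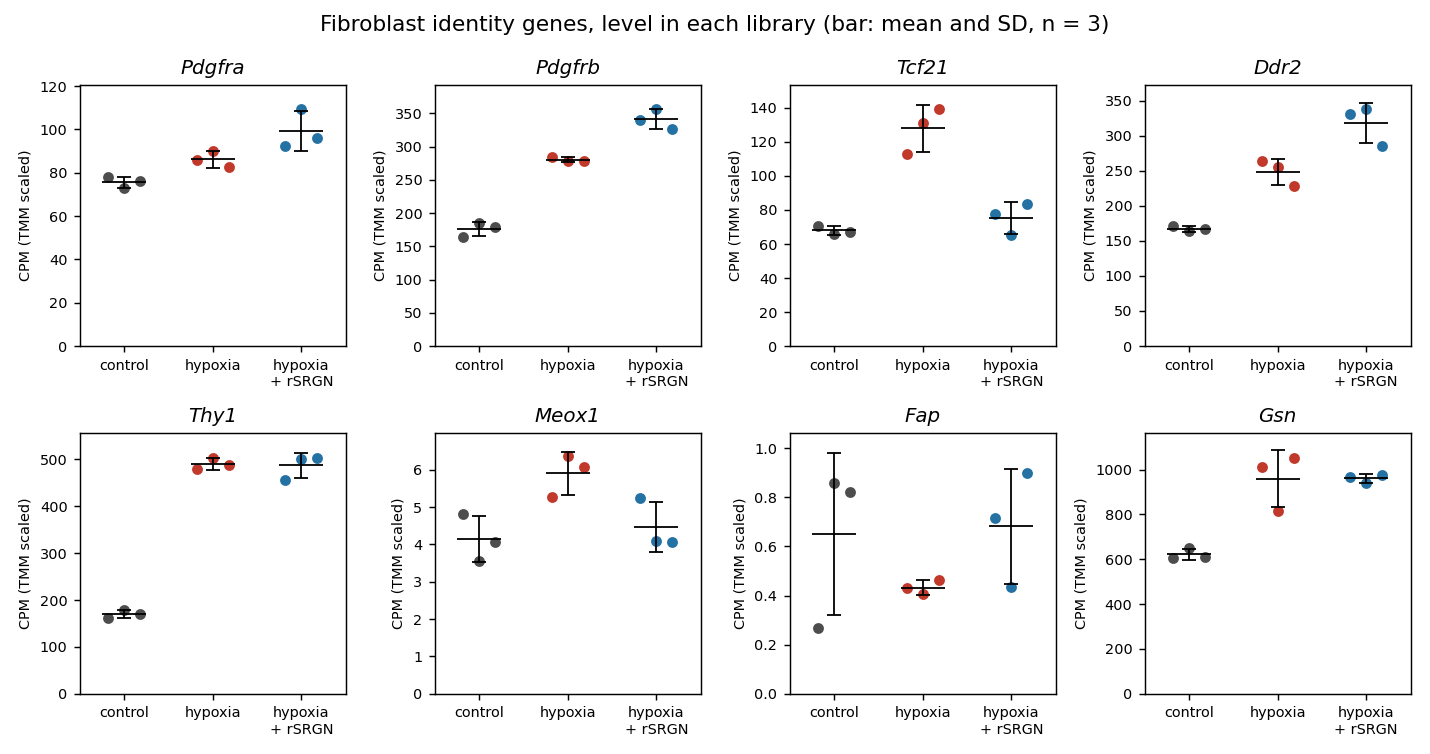
CPM of each gene in each library, with axes from 0, where points are libraries and bars give the mean and SD of 3. Thy1 and Gsn stand high in both chamber groups, Tcf21 is high in hypoxia only, and Pdgfrb and Ddr2 step up from control to hypoxia to hypoxia + rSRGN.

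The receptor genes were described first. Pdgfra (ENSMUSG00000029231.15, GRCm38, chr5:75152292-75198215, plus strand, 27 exon blocks) stood at 77.9, 72.9 and 76.1 CPM in control. Its hypoxia libraries had 86.0, 90.0 and 82.5 CPM and its hypoxia + rSRGN libraries 92.1, 109.6 and 95.9 CPM. The groups did not overlap, and the steps between them were small. In hypoxia against control Pdgfra was 1.14-fold higher (log2 fold change 0.19, SE 0.077, adjusted p = 0.0349), which is under the limit of 1.5. Against hypoxia, hypoxia + rSRGN was 1.15-fold higher (95% CI 1.03 to 1.29, adjusted p = 0.0753). Hypoxia + rSRGN against control gave 1.31-fold (95% CI 1.17 to 1.47, adjusted p = 0.000114), again under the limit. Exons of Pdgfra share 652 bases (6.50% of their length) with Gm42802, Gm42803 and Mir7025, and since no strand option is named for the counting, fragments from those bases could not be assigned with certainty.

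Pdgfrb (ENSMUSG00000024620.11, GRCm38, chr18:61045150-61085061, plus strand, 24 exon blocks) had 163.7, 184.9 and 178.9 CPM in control. It had 284.2, 278.5 and 277.8 CPM in hypoxia and 340.7, 357.1 and 326.4 CPM in hypoxia + rSRGN. Every group was separate from the others, with control lowest and hypoxia + rSRGN highest. Pdgfrb rose 1.59-fold in hypoxia against control (log2 fold change 0.67, SE 0.070, adjusted p = 1.79e-08), a change above that of 73.6% of tested genes. With rSRGN it was a further 1.22-fold higher than in hypoxia (log2 fold change 0.29, 95% CI 0.14 to 0.43, adjusted p = 0.00765), under the limit. Against control, hypoxia + rSRGN was 1.94-fold higher (adjusted p = 5.80e-11). Of 9 tested pericyte and smooth muscle markers, 0 rose and 3 fell (Des, Abcc9 and Cnn1) in hypoxia against control, with 5 calls without hypoxia replicate 2. Des and Abcc9, which striated muscle also expresses, summed to 1008 to 1224 CPM in control, 99.0 to 157 in hypoxia and 204 to 219.8 in hypoxia + rSRGN. The other 8 genes of the list, taken apart after their values were seen, summed to 478 to 574 CPM in control, 539 to 555 in hypoxia, within the control range, and 624 to 649 in hypoxia + rSRGN, above both. Among them Mcam (1.30-fold) and Notch3 (1.45-fold) had every hypoxia library above every control library, as Pdgfrb did, and neither was called. Cspg4, with the highest mean of these genes in control, went the other way: it was 0.824-fold (adjusted p = 0.00313), with every hypoxia library below every control library, and was not called. Of the others, Rgs5 (0.761-fold), Myh11 (0.720-fold) and Kcnj8 (1.43-fold, 87 fragments in all) were not called, Cnn1 was 0.559-fold, and Vtn, with 14 fragments in all, was not tested. The part of mural cells in the Pdgfrb values was not tested.

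Ddr2 (ENSMUSG00000026674.9, GRCm38, chr1:169972307-170110762, minus strand, 22 exon blocks) stood at 171.0, 163.6 and 166.3 CPM in control. The hypoxia libraries had 263.2, 254.8 and 227.9 CPM, and the hypoxia + rSRGN libraries 330.1, 337.9 and 285.1 CPM. As for Pdgfrb, the groups were separate in the order control, hypoxia, hypoxia + rSRGN. Hypoxia against control gave 1.49-fold (log2 fold change 0.57, SE 0.078, adjusted p = 8.81e-07), just under the limit of 1.5. It passed the limit without hypoxia replicate 3 (log2 fold change 0.63), with library size alone (0.64) and with upper quartile scaling (0.71). In hypoxia + rSRGN against hypoxia Ddr2 was 1.28-fold higher (95% CI 1.14 to 1.43, adjusted p = 0.00339), under the limit, and against control it rose 1.90-fold (adjusted p = 5.27e-10). Ddr2 shares 90 exon bases (0.972%) with the antisense gene 3110045C21Rik.

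Thy1 (ENSMUSG00000032011.5, GRCm38, chr9:44043384-44048579, plus strand, 5 exon blocks) showed the largest change of the 8 genes in hypoxia against control. Its levels were 160.9, 177.7 and 171.0 CPM in control, 479.4, 503.1 and 487.7 CPM in hypoxia, and 456.2, 501.9 and 503.7 CPM in hypoxia + rSRGN. Both chamber groups were far above control and overlapped each other. Thy1 rose 2.88-fold in hypoxia against control (log2 fold change 1.53, SE 0.072, adjusted p = 2.12e-14), more than 90.8% of tested genes. No difference between hypoxia + rSRGN and hypoxia could be detected, and the 95% CI of the log2 fold change was -0.15 to 0.14 (adjusted p = 0.958). Against control, hypoxia + rSRGN was 2.87-fold higher (adjusted p = 2.94e-14). Markers of other cells that use Thy1 were summed too. T lymphocyte markers came to 0.773 to 1.45 CPM over 7 genes in control, 1.56 to 2.26 CPM in hypoxia and 0.687 to 2.32 CPM in hypoxia + rSRGN, with 5 of the 7 not tested. Schwann cell and neuron markers came to 39.6 to 42.7 CPM over 8 genes in control, 82.1 to 98.6 CPM in hypoxia and 62.4 to 77.6 CPM in hypoxia + rSRGN. Most of the neural sum came from Tubb3, which had a mean of 30.4 CPM in control, 75.5 CPM in hypoxia and 56.2 CPM in hypoxia + rSRGN. The neural sum was higher in hypoxia than in control, as Thy1 was. With rSRGN every library's neural sum was below those of hypoxia and Tubb3 was 0.744-fold (adjusted p = 0.00416, not called), while Thy1 was 0.994-fold (adjusted p = 0.958). The part of neural cells or T cells in the Thy1 values was not tested.

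Fap (ENSMUSG00000000392.17, GRCm38, chr2:62500943-62574075, minus strand, 27 exon blocks), the marker of activated fibroblasts, was barely detected. Its counts were 6, 19 and 17 fragments in control, 8, 7 and 8 in hypoxia and 12, 9 and 17 in hypoxia + rSRGN, and all groups overlapped. Hypoxia against control gave a fold change of 0.671 with a 95% CI of 0.308 to 1.46 (adjusted p = 0.349), and hypoxia + rSRGN against hypoxia 1.56 with a 95% CI of 0.710 to 3.43 (adjusted p = 0.472). A change within these intervals was not detectable at this depth.

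Tcf21 (ENSMUSG00000045680.8, GRCm38, chr10:22817281-22820174, minus strand, 2 exon blocks) was the only gene of the 8 that was called in opposite directions. It stood at 70.8, 65.9 and 67.4 CPM in control, at 113.0, 131.3 and 139.6 CPM in hypoxia and at 77.8, 65.0 and 83.4 CPM in hypoxia + rSRGN. The hypoxia libraries were all above the other 6, and control and hypoxia + rSRGN overlapped. Tcf21 rose 1.88-fold in hypoxia against control (log2 fold change 0.91, SE 0.091, adjusted p = 8.32e-09), more than 80.0% of tested genes. It then fell to 0.589-fold with rSRGN against hypoxia (95% CI 0.517 to 0.671, log2 fold change -0.76, SE 0.091, adjusted p = 3.85e-05), and 3.11% of tested genes had a lower log2 fold change. Both calls rest on the same hypoxia libraries, and both held with each of the 9 libraries left out in turn. Hypoxia + rSRGN against control gave 1.11-fold (95% CI 0.971 to 1.26, adjusted p = 0.157). The Tcf21 exons share 0 bases with another gene, and its promoter window is the one above with 1 HIF core and 0 E-boxes.

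Meox1 (ENSMUSG00000001493.9, GRCm38, chr11:101877510-101894374, minus strand, 3 exon blocks) had the outline of Tcf21 at a much lower level. It had 4.81, 3.57 and 4.06 CPM in control, 5.26, 6.36 and 6.08 CPM in hypoxia and 5.24, 4.10 and 4.07 CPM in hypoxia + rSRGN. The hypoxia libraries were above both other groups, by a narrow margin. In hypoxia against control Meox1 was 1.42-fold higher (95% CI 1.08 to 1.88, adjusted p = 0.0239), under the limit. It passed without control replicate 1 (log2 fold change 0.61) and with upper quartile scaling (0.64). Hypoxia + rSRGN against hypoxia gave 0.756-fold (95% CI 0.571 to 1.00, adjusted p = 0.171), and hypoxia + rSRGN against control 1.07-fold (95% CI 0.808 to 1.43, adjusted p = 0.657).

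Gsn (ENSMUSG00000026879.14, GRCm38, chr2:35256380-35307892, plus strand, 21 exon blocks) stood at 605.1, 648.7 and 612.3 CPM in control. It had 1012, 815 and 1053 CPM in hypoxia and 967.9, 939.3 and 977.5 CPM in hypoxia + rSRGN. Both chamber groups were above control, and hypoxia replicate 2 was the lowest of their 6 libraries. Gsn rose 1.54-fold in hypoxia against control (log2 fold change 0.63, SE 0.084, adjusted p = 7.47e-07), close to the limit. It was under the limit without hypoxia replicate 3 (log2 fold change 0.55) and with genes kept from 1 count in all libraries (0.57). Hypoxia + rSRGN against hypoxia gave 1.00-fold (95% CI 0.888 to 1.13, adjusted p = 0.991). Against control, hypoxia + rSRGN rose 1.55-fold (adjusted p = 7.72e-07).

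**Figure D3:**
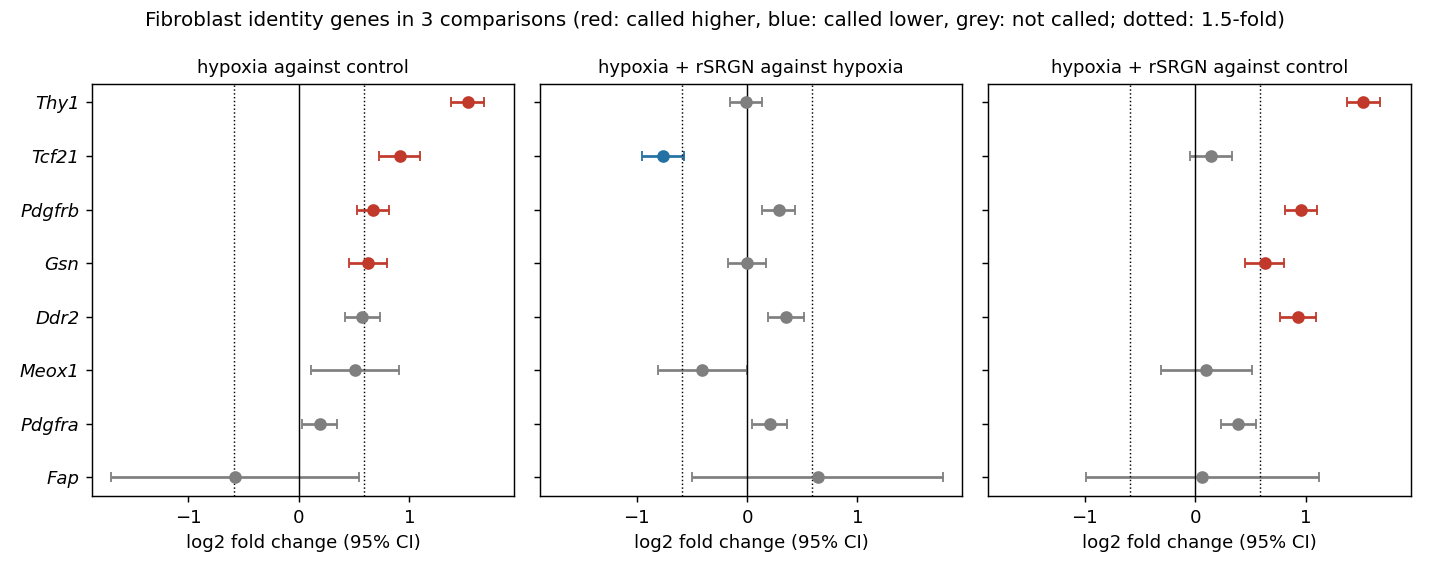
Log2 fold change of each gene with its 95% CI in the 3 comparisons, where the solid line marks 0, the dotted lines mark 1.5-fold, red is called higher, blue called lower and grey not called. Tcf21 is to the right in the first panel (0.91) and to the left in the second (-0.76), and Fap has the widest intervals.

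The balance of the PDGF receptor genes was taken within each library, where scaling cancels, as the log2 ratio of Pdgfra to Pdgfrb counts per kilobase. The ratio was -1.94, -2.21 and -2.11 in control, -2.60, -2.50 and -2.62 in hypoxia and -2.76, -2.58 and -2.64 in hypoxia + rSRGN. Pdgfrb was therefore 3.85 to 4.64 times as abundant as Pdgfra in control and 5.66 to 6.16 times in hypoxia, with no overlap. The mean ratio differed by -0.49 between hypoxia and control (exact two-sided permutation test, p = 0.1), by -0.08 between hypoxia + rSRGN and hypoxia (p = 0.4 by the same exact test) and by -0.57 between hypoxia + rSRGN and control (p = 0.1, exact). With 3 libraries against 3, an exact p of 0.1 is the smallest that can be had, so that this test could not pass 0.05.

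**Figure D4:**
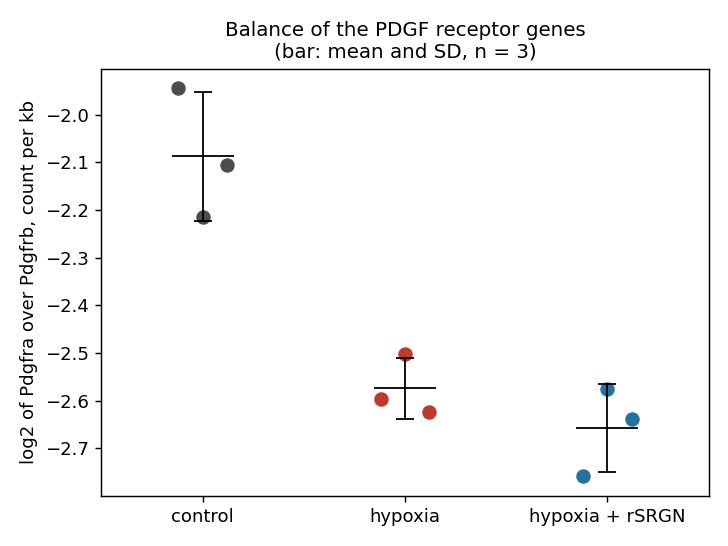
Log2 ratio of Pdgfra to Pdgfrb counts per kilobase in each library, with the mean and SD of 3; the axis does not start at 0. The control libraries lie between -2.21 and -1.94 and all other libraries lie below them.

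Likeness between genes was measured over the 9 libraries as the root mean square difference of log2 CPM, each gene centred on its own mean, so that 0 is the same profile. The members nearest to each other were Pdgfrb and Ddr2, at 0.093, and the farthest apart were Thy1 and Fap, at 0.93. Among 14257 genes with a mean of at least 1 CPM, those nearest to Pdgfrb were Pcsk6 (0.042), Loxl2 and Myo1d, and those nearest to Ddr2 were Sema3d (0.046), Resf1 and Pla2r1. Nearest to Thy1 were Vim (0.056), the intermediate filament gene of mesenchymal cells, Aplp1 and Slc3a2. Tcf21 was nearest to Aurka (0.12), a mitotic kinase gene, Pinx1 and Rrnad1, with a distance above those of Pdgfra, Pdgfrb, Ddr2, Thy1 and Gsn to their nearest genes. Gsn was nearest to Gm10123 (0.049), Ctsd and Arhgef40, Pdgfra to Galc (0.039), Canx and Map4k5, Meox1 to Sirt7 (0.10), Ints12 and Tm2d1, and Fap to Arhgef4 (0.33), Gm10524 and Gm12359. All these profiles share the same 9 libraries, and a small distance says only that the values ran alike.

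Other fibroblast genes were set beside the 8. Of 16 genes of resident fibroblasts, 14 rose in hypoxia against control and 0 fell, and the median log2 fold change was 1.20. Sparc, a matrix glycoprotein gene and the most abundant of them, rose 2.66-fold, and Pi16 rose most, 3.32-fold. Islr was 0.990-fold and Lum 1.22-fold, and neither was called. Islr was the only gene of the 16 with a lower fold change than Pdgfra. With rSRGN against hypoxia, 0 of the 16 were called, and the ends of their range were Medag at 1.19-fold and Mfap5 at 0.683-fold (adjusted p = 0.0174), which missed the limit of 1.5-fold downwards. At an adjusted p under 0.05 with no limit on the fold, 3 of the 16 passed, all lower with rSRGN: Dpt (0.812-fold), Islr (0.760-fold) and Mfap5. By the same rule 2790 of all 16762 tested genes passed, 1766 of them higher with rSRGN. Medag shares 36.7% of its exon bases with another gene.

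Of 12 genes of activated fibroblasts, 9 rose in hypoxia against control and 0 fell, and the median log2 fold change was 1.01. Acta2, the smooth muscle actin of myofibroblasts and the most abundant of them, was 1.46-fold higher and not called, Tagln rose 2.78-fold and Col12a1 was 0.693-fold and not called. Tagln shares 67.9% of its exon bases with Gm48529 and Pcsk7, so its counts are uncertain. In hypoxia + rSRGN against hypoxia, 1 of the 12 was higher, Col12a1 at 1.79-fold (adjusted p = 1.48e-05), and Acta2 was 0.812-fold and not called. Without hypoxia replicate 2, 3 of the 12 were called. Fap was thus near 0 in libraries where Postn, a matricellular gene of the same state, rose 2.20-fold in hypoxia against control.

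Genes that work with the receptors were counted next. Of 19 genes of PDGF signalling, 3 rose in hypoxia against control, which were Fyn (1.66-fold), Src (1.53-fold) and Lrp1 (1.52-fold), and 8 fell. The largest fall was that of Gab1, a docking adaptor, to 0.291-fold, and Grb2, the adaptor that joins the receptors to RAS, fell to 0.489-fold. The ligand genes Pdgfa, Pdgfb, Pdgfc and Pdgfd were at 0.905-, 1.14-, 1.36- and 1.15-fold and were not called. With rSRGN against hypoxia only Cbl, the ubiquitin ligase that ends receptor signalling, was called, 1.55-fold higher (adjusted p = 0.000260). Under the limit on the fold, with an adjusted p below 0.05, were Lrp1 (1.47-fold, adjusted p = 0.00132), Crkl (1.42-fold, 0.000375), Ptpn11 (1.32-fold, 0.000621), Rasa1 (1.22-fold, 0.0318) and Pdgfb (1.39-fold, 0.0466). The lowest of the 19 was Grb2 at 0.906-fold (adjusted p = 0.276). The list summed to 1767 to 2064 CPM in hypoxia and 2370 to 2507 CPM in hypoxia + rSRGN. None of the 19 was called without hypoxia + rSRGN replicate 2 or without hypoxia replicate 3, and 2 were called without hypoxia + rSRGN replicate 3, hypoxia replicate 1 or hypoxia replicate 2. Of 8 tested ligands and partners of DDR2, 7 rose in hypoxia against control: the collagen genes Col1a1 (2.26-fold), Col1a2 (1.85-fold) and Col3a1 (1.55-fold), the proteases Mmp2 (2.38-fold) and Mmp14 (2.43-fold), Snai1 (1.503-fold) and Lox (1.73-fold). Snai1 stands at the limit of 1.5-fold, and the count was 5 to 7 over the other scalings, filters, tools and left-out libraries, with 5 without control replicate 1 or without hypoxia replicate 1. Of the 9 genes in this list 5 also stand in other lists here (Col1a1, Col1a2, Col3a1, Lox and Snai1), so its count is not separate from theirs. The sister receptor Ddr1 was 0.860-fold and not called, and 0 of the 8 were called with rSRGN against hypoxia, where Lox was 1.34-fold higher (adjusted p = 0.000714).

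Among 13 mesenchymal transcription factors, 9 rose in hypoxia against control and 0 fell, and the median log2 fold change was 0.67. The count of 9 was 6 without hypoxia replicate 3 and 7 to 10 under the other alternatives that kept the limit on the fold. Twist2 rose 4.19-fold, Osr1 3.86-fold, Wt1 3.70-fold, Snai2 3.61-fold and Twist1 3.09-fold. Twist2 shares 46.5% of its exon bases with Gm29100. The bHLH partners of TCF21 were not called: Tcf3 was 1.44-fold, Tcf12 1.24-fold and Tcf4 0.826-fold. With rSRGN against hypoxia 0 of the 13 were called, and the factors nearest to Tcf21 in direction were Twist2 at 0.745-fold (adjusted p = 0.250) and Osr1 at 0.831-fold (adjusted p = 0.248). Meox2, the paralogue of Meox1, rose 2.34-fold in hypoxia against control and was 0.856-fold with rSRGN against hypoxia (adjusted p = 0.554).

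Genes for severing and capping actin were set beside Gsn. Of 16 tested, 5 rose in hypoxia against control and 5 fell, which is near the shares of 26.4% and 25.1% over all tested genes. Avil, a gelsolin relative, rose 13.9-fold, Cfl1 (cofilin) 2.14-fold, Pfn1 2.11-fold, Tmod3 1.94-fold and Capg 1.83-fold. The genes that fell included Tmod1 (0.0625-fold), Svil (0.127-fold) and Cfl2 (0.466-fold), which are known from striated muscle, and also Scin (0.0872-fold) and Twf2 (0.600-fold). Dstn, the most abundant, was 0.838-fold and not called. With rSRGN against hypoxia Avil fell to 0.650-fold and Tmod1 rose 1.83-fold, and without hypoxia + rSRGN replicate 2 there was 1 call of the 16. Tmod1 shares 32.6% of its exon bases with Tstd2. Of 8 relatives of FAP and integrin partners of THY1, 2 rose and 2 fell in hypoxia against control, again near the shares over all tested genes. Dpp4 (1.97-fold) and Dpp9 (1.51-fold) rose, and Dpp8 (0.580-fold) and Itgam (0.151-fold, 59 fragments in all and 68.7% of exon bases shared) fell. Itgav, of the integrin that binds THY1, was the only one called with rSRGN against hypoxia (1.51-fold), and it was not called without hypoxia + rSRGN replicate 2, hypoxia replicate 1 or hypoxia replicate 3.

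**Figure D5:**
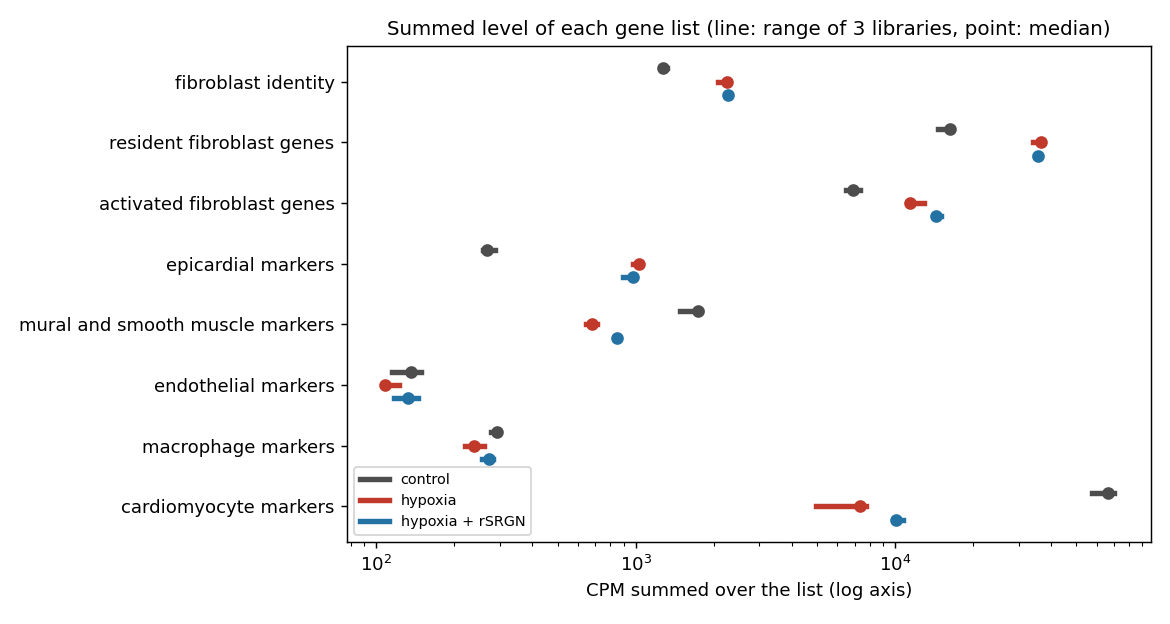
CPM summed over each list on a log axis, with lines for the range of 3 libraries and points for the median, in grey for control, red for hypoxia and blue for hypoxia + rSRGN. The fibroblast and epicardial lists are higher in both chamber groups than in control, and the cardiomyocyte list is lower, as is the mural list through Des and Abcc9, while the other 8 mural genes sum to 478 to 574 CPM in control and 539 to 555 CPM in hypoxia.

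Markers of other cells of the heart moved with the groups too. All 8 epicardial markers rose in hypoxia against control, and the median log2 fold change was 2.05, and Upk1b rose most, 4.73-fold. Their sum was 258 to 287 CPM in control, 973 to 1044 in hypoxia and 898 to 985 in hypoxia + rSRGN, and 0 of 8 were called with rSRGN against hypoxia. Tbx18 and Wt1 are in this list and among the transcription factors above. Of 10 endothelial markers 7 fell and 0 rose in hypoxia against control, with a sum of 115 to 149 CPM in control and 107 to 123 in hypoxia. Of 13 macrophage markers 10 fell, among them C1qa, Lyz2 and Ptprc, while Mertk rose 2.24-fold and Cx3cr1 stood at a mean of 114 CPM in hypoxia and 0.285 CPM in control. Of the markers tested for Schwann cells and neurons 2 rose and 1 fell, and for T lymphocytes 1 of 2 rose (Lck), which was not called without control replicate 1.

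With rSRGN against hypoxia, 15 of the 20 cardiomyocyte markers were higher and 0 lower, with a median log2 fold change of 0.73, and 7 of 20 were called without hypoxia replicate 3. Of 9 tested mural markers 3 were higher (Rgs5, Abcc9 and Des) and 0 lower, and 1 was called without hypoxia replicate 3. Of the endothelial markers Kdr alone was higher, and 0 macrophage, 0 neural and 0 T lymphocyte markers were called. The lists with 0 calls by edgeR in this comparison also had 0 by DESeq2 and 0 at an unadjusted p under 0.05 with the same fold limit, save 1 macrophage marker at the unadjusted p. The part of these shifts in the lower Tcf21 and in the Pdgfrb and Ddr2 values with rSRGN was not tested. With TMM factors computed without the cardiomyocyte markers and mitochondrial genes, the calls among the 8 genes numbered 4 in hypoxia against control, 1 with rSRGN against hypoxia and 4 with rSRGN against control.

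Against control, hypoxia + rSRGN gave counts close to those of hypoxia in the fibroblast lists. Of the resident genes 14 of 16 rose and of the activated genes 9 of 12, with 0 lower in both. Of PDGF signalling 6 rose, among them Lrp1 (2.22-fold), Pdgfc (1.60-fold) and Pdgfb (1.58-fold), and 4 fell. Of the DDR2 partners 6 of 8 rose, of the transcription factors 6 of 13, and of the actin genes 5 rose and 5 fell. The epicardial markers had 7 of 8 higher and the cardiomyocyte markers 20 of 20 lower. Both comparisons use the same control libraries, so these counts are not independent of those for hypoxia.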

How the data were processed

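The 8 members and the gene lists were chosen with earlier results of these data known, so no count over a list is given as independent support. Per the labels, total RNA was extracted with Trizol, poly(A) RNA was sequenced on an Illumina NovaSeq, and HISAT2, featureCounts and mm10 are named. The table the authors deposited holds raw fragment counts, a whole number for each gene and library, from featureCounts 2.0.1 on exons of GENCODE M25, with no strand option in its header. All 9 columns of counts were mapped to libraries by name and 0 were left unused.

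The fit used edgeR 4.0.16 under R 4.3.3 (filterByExpr, TMM, 1 mean per group over all 9 libraries, glmQLFit and glmQLFTest), and DESeq2 1.42.0 was an alternative. Calls needed a Benjamini-Hochberg adjusted p under 0.05 and a fold change of at least 1.5. FPKM used the exon length in the table. The step was tested on simulated data. The named genes are the 8 members, the 3 genes most like each, and from each list the most abundant gene and the ends of its fold changes in the comparisons of hypoxia with control and of hypoxia + rSRGN with hypoxia. Others, named after their values were seen, are Lum, Postn, Fyn and Src with Lrp1, the Pdgf ligands, Grb2, Crkl, Ptpn11, Rasa1, the DDR2 partners, the transcription factors and actin genes with values, Dpp8, Dpp9, Itgav, Mcam, Cspg4, Kcnj8, Vtn, Myh11, Dpt, Tubb3, Mertk, Ptprc, Rgs5 and Kdr. The counts of replicates of a group differed beyond sampling noise (chi-square per degree of freedom 3.63 to 13.1), so the libraries were not copies of each other. This does not tell separate cultures from separate libraries of a culture. Overlap of exons and gene positions were read from the table, and promoter windows from RefSeq. The study's other experiments were not analysed here.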

Additional observations from a re-analysis of the deposited data

How the results depend on the processing

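The counts of called members stayed within 1.5 times of the reported ones in 58 of 60 recomputations. Without a limit on the fold, 7 members passed in hypoxia against control (4 with it) and 3 in hypoxia + rSRGN against hypoxia (1 with it). By the same rule 11876 of all 16762 tested genes passed in hypoxia against control, 6165 of them higher. Of all tested genes, 525 were called in hypoxia + rSRGN against hypoxia, 2790 without the limit, 899 with the unadjusted p, and 321 (without hypoxia replicate 3) to 699 (without hypoxia replicate 2) with a library left out. Calls were higher in 72.6% of those genes, in 57.9% with upper quartile scaling and in 81.5% with DESeq2. Upper quartile scaling moved the median of all genes in hypoxia against control from 0.05 to 0.19.

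Of 475 recomputed log2 fold changes of members, 444 kept their direction and side of the threshold, 11 passed it newly, 2 no longer did, and 18 changed sign, all of them uncalled values near 0. Thy1 in hypoxia + rSRGN against hypoxia was 0.0206 with DESeq2, 0.0205 with RLE, 0.00187 with TMM without cardiomyocyte and mitochondrial genes, 0.00364 with genes kept from 1 count, 0.00501 with at least 10 counts, 0.00766 with only the groups compared, and -0.028 to 0.039 with a library left out. Gsn in that comparison was -0.023 with library size alone, -0.0479 with upper quartile scaling and -0.10 to 0.076 with a library left out. In hypoxia + rSRGN against control, leaving out a library gave Fap -0.31 to 0.32 and Meox1 -0.023 to 0.22. Fap was not tested with at least 10 counts in every library, and with only the groups compared it was tested in hypoxia + rSRGN against control but not in the other two comparisons. The cause of these shifts was not tested.

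In a fit with a replicate block, calls numbered 8550 in hypoxia against control, 495 with rSRGN against hypoxia and 8096 with rSRGN against control, with 4, 1 and 4 members among them. Libraries with the same number did not deviate together (r from -0.037 to 0.0038 over 9 pairs), so no pairing by number was seen. These r values weigh every tested gene alike, low counts included, so they cannot exclude a shared culture or litter. Depth limits Fap and Meox1 most.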
